A study of Mus musculus with 24 samples.

Results

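Thymic epithelium is the tissue that receives T cell precursors and selects them, and 10 genes that mark it or that it uses to instruct thymocytes were followed here, of 21154 named on the array. They were Psmb11, Foxn1, Ccl25, Dll4, Ctsl, Prss16, Cxcl12, Ly75, Krt8 and Krt5. Of these, 9 were chosen by their known role in the cortical or medullary stroma, though with earlier results of these data known. Psmb11 was selected on its own difference between irradiated and control arrays, so that difference is described with no test.

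RNA came from thymocytes of male and female C57BL/6J mice of 4 to 5 weeks, a strain with no engineered allele named in the labels. The study asked whether a priming dose of radiation changes the response of these cells to a challenging dose, and whether the sexes differ in it. Control mice were not irradiated, low dose mice received 0.075 Gy of X-rays, high dose mice received 1.75 Gy of γ-rays, and RAR mice (radio-adaptive response) received both, with 6 h between them. Each of the 8 groups of one sex and one treatment had 3 arrays, from 3 individual mice per the methods.

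Thymocytes were obtained by breaking up the organ and passing it through a sieve, and no step that isolates or removes epithelium is described. The cortex of the thymus is lined by epithelial cells that attract precursors with chemokines, drive them into the T lineage with a Notch ligand, and then show them peptides cut by proteases found in few other cells. Medullary epithelium, marked by other keratins, later removes self-reactive cells. Foxn1 is the transcription factor on which both epithelial types depend.

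Promoter windows are shown for 3 genes that the results turn on: Psmb11 and Ccl25, whose levels were lower in RAR arrays than in controls, and Krt8, whose level was higher. Each window runs from 250 bases before to 50 bases after the start, 5′ to 3′ on the gene's strand, from RefSeq on GRCm38.p6. Capitals mark the letters GACGC, the core of the FOXN1 binding motif, on either strand.
Psmb11 (chr14:54625060-54625359, plus strand): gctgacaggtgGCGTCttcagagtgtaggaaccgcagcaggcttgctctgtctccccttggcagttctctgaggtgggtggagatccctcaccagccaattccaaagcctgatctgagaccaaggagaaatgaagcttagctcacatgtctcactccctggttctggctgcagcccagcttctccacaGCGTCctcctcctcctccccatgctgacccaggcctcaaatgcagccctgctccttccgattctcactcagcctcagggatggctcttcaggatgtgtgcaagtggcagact
Ccl25 (chr8:4324960-4325259, plus strand): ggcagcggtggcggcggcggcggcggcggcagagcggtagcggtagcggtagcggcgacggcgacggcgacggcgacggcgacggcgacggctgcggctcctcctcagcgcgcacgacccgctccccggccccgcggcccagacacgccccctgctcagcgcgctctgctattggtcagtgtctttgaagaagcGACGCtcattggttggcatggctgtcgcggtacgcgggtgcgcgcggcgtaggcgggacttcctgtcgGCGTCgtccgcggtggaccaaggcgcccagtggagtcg
Ccl25, second start (chr8:4349338-4349637, plus strand): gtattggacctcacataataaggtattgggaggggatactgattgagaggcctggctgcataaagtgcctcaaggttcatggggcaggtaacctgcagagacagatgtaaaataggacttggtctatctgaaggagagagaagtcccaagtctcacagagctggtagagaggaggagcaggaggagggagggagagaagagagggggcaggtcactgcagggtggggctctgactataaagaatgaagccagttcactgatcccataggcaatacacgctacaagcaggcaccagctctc
Krt8 (chr15:102004293-102004592, minus strand): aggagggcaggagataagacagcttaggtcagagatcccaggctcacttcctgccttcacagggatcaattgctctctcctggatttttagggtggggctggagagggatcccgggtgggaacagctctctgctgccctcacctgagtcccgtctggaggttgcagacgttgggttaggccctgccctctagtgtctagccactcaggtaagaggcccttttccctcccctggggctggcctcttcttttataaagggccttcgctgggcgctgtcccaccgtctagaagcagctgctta

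The Psmb11 window held the FOXN1 core 62 and 239 bases before the start, both on the opposite strand. The first Ccl25 window held it 56 bases before the start and again 12 bases after it, and neither the second Ccl25 window nor the Krt8 window held it. RefSeq windows were found for 9 of the 10 genes, Prss16 being the one without an entry, and gave 10 windows. The core was in 4 of these 10 windows, including those of Cxcl12 and Krt5, against 27.2% of all 32851 windows of the same length. A TRP53 half-site, the motif of the radiation-activated factor TRP53, was in 3 of the 10 windows (Psmb11, Foxn1 and Krt5), against 8.36% of all windows, and none of those matches overlapped a FOXN1 core. These matches describe letters only.

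Every array carried thymocyte RNA in Cy5 and a pool made from Universal Mouse RNA, a mixed commercial reference, in Cy3, with no dye swap. Levels are log2 Cy5/Cy3, so a value of 0 means as much signal as in the reference, and levels of different genes are not set against each other. A spot counts as well above background when the scanner software flagged it so in Cy5. Ccl25, Ctsl, Prss16, Cxcl12, Krt8 and Krt5 were well above background on all 24 arrays with their brightest probe, while Psmb11 was on 8, Foxn1 on 6, Ly75 on 5 and Dll4 on 3. The double-positive thymocyte genes (10, among them Cd4, Cd8a and Rag1) were all well above background on all 24 arrays, with a mean level per array between 5.15 and 5.83.

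Female RAR replicates 2 and 3 stood apart: 71.8% and 34.7% of their spots were well above background, against 49.3% to 62.8% on the other arrays. The arrays lay on 3 slides, and no slide held female control arrays beside female high dose or female RAR arrays, so for those comparisons slide and treatment can be separated only through other groups. A difference passed the threshold at a limma adjusted p under 0.05 over 55681 probes together with a change of at least 1.5-fold. In these bulk samples, fewer cells of a type and less RNA per cell cannot be told apart. Where the Cy5 channel was used alone, the median of all probes moved by 0.64 for female RAR minus control, 0.33 for male RAR minus control, 0.39 and 0.43 for female RAR minus high and minus low dose, 0.14 for male RAR minus high dose and for male low dose minus control, and −0.18 for male minus female RAR.

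Psmb11 encodes the thymoproteasome subunit β5t, made by cortical epithelium. Its level was 4.51, 3.77 and 3.06 in the female controls and 4.67, 4.25 and 3.32 in the male controls. In females it was −0.49, 0.01 and 0.02 after the low dose, 1.02, −1.72 and 0.19 after the high dose, and −0.25, −0.41 and −0.10 in RAR. All 6 controls lay above all 9 irradiated female arrays, and the single low dose already gave values near 0. In males the level was 0.52, −0.06 and −0.27 after the low dose, −0.93, 0.48 and −1.45 after the high dose, and −0.27, −1.12 and 1.27 in RAR. Over both sexes the controls spanned 3.06 to 4.67 and the 18 irradiated arrays −1.72 to 1.27, with no overlap.

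As a description of the values that selected it, Psmb11 differed from control by −3.94, −3.95 and −4.03 in females (low dose, high dose, RAR) and by −4.02, −4.71 and −4.12 in males (SE 0.66 each). It ranked 1 of 55681 probes from the lowest in all these comparisons except male RAR, where it ranked 3. The spot was well above background on all 6 controls but, of the irradiated arrays, only on female RAR replicate 2 and male high replicate 3, so the other irradiated values give bounds. By that bound Psmb11 was in females at least 3.34-fold lower (low dose) and at least 4.66-fold lower (high dose), and in males at least 3.32-fold lower (low dose) and at least 4.03-fold lower (RAR). These bounds hold for the processed signals only, and the size depended on the processing. With normexp, which adds an offset of 50 to the signals, the difference was −0.72 to −0.94, smaller than these bounds. With Cy5 alone it was −1.85 in female RAR, −2.63 in male high dose and −3.22 in male low dose. On slide 3, which held 2 male low dose and 2 male control arrays, the difference was −3.66, and on the same slide that of 1 female low dose array from the mean of the 3 female controls was −3.76.

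Among irradiated groups, where Psmb11 was not selected, no difference passed the threshold. RAR minus high dose was −0.08 in females (95% interval −1.47 to 1.31, limma adjusted p = 0.965) and 0.59 in males (−0.80 to 1.98, adjusted p = 0.66). RAR minus low dose was −0.10 in females (−1.49 to 1.29) and −0.10 in males (−1.49 to 1.29), and high minus low dose was −0.02 in females and −0.69 in males. Most of the spots behind these intervals were not well above background. Male minus female control was 0.30 (adjusted p = 0.949).

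**Figure D1:**
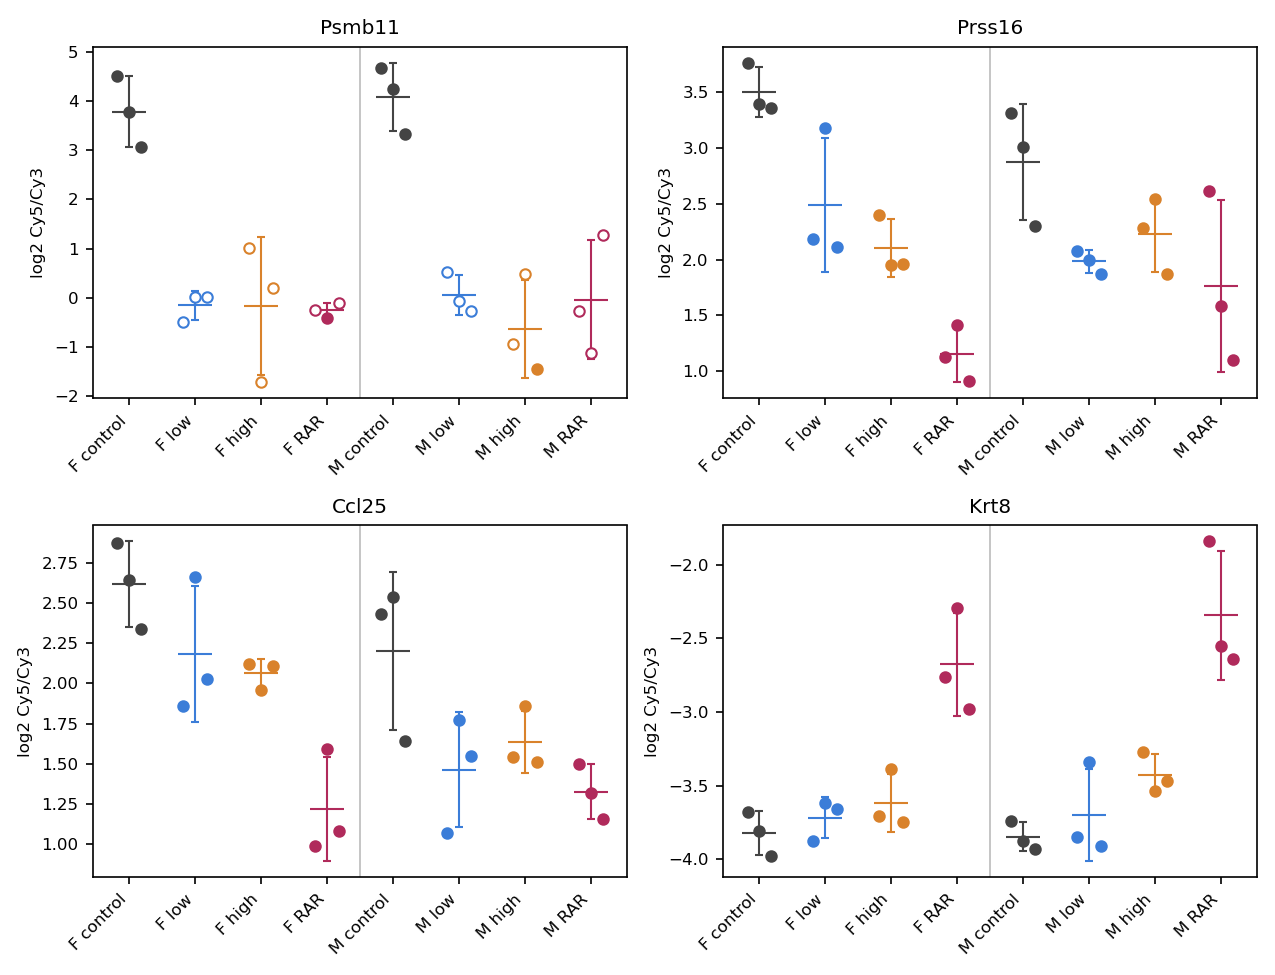
Level (log2 Cy5/Cy3, vertical axis) of Psmb11, Prss16, Ccl25 and Krt8 on each array, by sex (F, M) and treatment; filled points are well above background in Cy5, open points are not, and bars give the mean and SD of 3 arrays. Psmb11 lay between 3.06 and 4.67 in controls and between −1.72 and 1.27 in irradiated arrays, whereas Krt8 was at its highest in the RAR arrays.

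Over the 24 arrays, the genes whose level ran most like that of Psmb11, among 14517 genes well above background in some group, were Gm6756 (Pearson r = 0.943), Cct3 (0.937), Rrp9 (0.933), Aimp2 (0.933) and Wdr75 (0.929). The arrays share their groups and the reference pool, and r includes the difference from control on which Psmb11 was selected. The likeness and the ranks below are therefore a description only, and within groups r fell to between 0.379 and 0.606. Cct3, a subunit of the chaperonin that folds newly made proteins, had a mean of −0.44 in female controls and −1.14 after the low dose, −1.17 after the high dose and −1.14 in RAR. Gm6756, a predicted gene, stood at −1.18 in female controls and between −1.75 and −1.86 in the irradiated female groups. None of these 5 is a gene of the epithelial lists. Prss16 ranked 2204 by the same measure (r = 0.685), Ccl25 ranked 3220 (0.612) and Krt8 ranked 11435 (−0.436).

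Compared with the controls of their sex, the 9 genes other than Psmb11 passed the threshold most often in RAR. So did all probes, and the higher counts in RAR are therefore not particular to these genes. The 9 were chosen with earlier results of these data known, so their counts beside all probes are a description only. Among the 32732 probes well above background on all arrays of a group, 32.76% passed in female RAR and 38.27% in male RAR. Shares for the high and low dose were 12.46% and 14.51% in females, and 16.21% and 10.59% in males. In females, high dose minus control had 0 of 9 higher and 2 lower (Prss16 and Krt5), against 4.23% and 3.65% of all probes. Female low dose minus control had 0 of 9 past the threshold with limma, against 4.76% higher and 4% lower, and 1 of 9 at an unadjusted p under 0.05. Female RAR minus control had 1 of 9 higher (Krt8) and 2 lower (Prss16 and Ccl25), against 9.64% and 10.8%. Their median difference was −0.46, −0.39 and −0.41, respectively, beside medians of all probes of −0.02, −0.05 and −0.04.

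In males, high dose minus control had 0 of 9 past the threshold with limma, against 5.2% higher and 5.38% lower, and 1 of 9 at an unadjusted p under 0.05. Male low dose minus control also had 0 of 9, against 3.21% and 3.44%, and 2 of 9 at an unadjusted p under 0.05. Male RAR minus control had 2 of 9 higher (Krt8 and Cxcl12) and 2 lower (Prss16 and Ccl25), against 11.2% and 13.4%. The medians were −0.36, −0.32 and 0.14, beside −0.02, 0.00 and −0.02 over all probes. The 3 comparisons of one sex share their control arrays.

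Prss16, a thymus-specific serine protease that prepares peptides for MHC class II, fell in RAR in both sexes and after the high dose in females. Its level was 3.76, 3.39 and 3.36 in female controls, 2.18, 3.18 and 2.11 after the low dose, 2.40, 1.95 and 1.96 after the high dose, and 1.13, 1.41 and 0.91 in RAR. Every female RAR array was below every other female array. Female RAR minus control was −2.35 (SE 0.345, limma adjusted p = 3.946e-05), and it was −2.48 without RAR replicate 2, −2.23 without RAR replicate 3 and −2.58 with slide as a block (adjusted p = 0.0017). After the female high dose Prss16 changed by −1.40 (adjusted p = 0.0102), a call lost with slide as a block (−1.54, adjusted p = 0.157). After the female low dose the difference was −1.02 (adjusted p = 0.0572), which passed with slide as a block (−1.29, adjusted p = 0.0473) and without female low replicate 2, the array at 3.18 (−1.36, adjusted p = 0.0159).

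In males Prss16 was at 3.31, 3.01 and 2.30 in controls, 2.08, 2.00 and 1.87 after the low dose, 2.28, 2.54 and 1.87 after the high dose, and 2.61, 1.58 and 1.1 in RAR. Control replicate 3 lay below RAR replicate 1, so these groups overlapped. RAR minus control was −1.11 (SE 0.345, limma adjusted p = 0.0184). That call was lost with slide as a block (−1.20, adjusted p = 0.0589) and on leaving out male control replicate 1 or 2 or male RAR replicate 2 or 3, where it lay between −0.78 and −1.04 with adjusted p between 0.0586 and 0.119. Low dose minus control was −0.89 (adjusted p = 0.114) and high dose minus control −0.65 (adjusted p = 0.241). The exact two-sided permutation test on 3 against 3 arrays gave p = 0.1 for female RAR against control, the smallest p it can give, and p = 0.2 for male RAR against control.

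Ctsl, the lysosomal protease cathepsin L that works beside Prss16 in cortical epithelium but is present in many cells, moved little. It was at −1.49, −1.58 and −1.77 in female controls, −1.68, −1.85 and −2.01 after the high dose, −1.87, −1.54 and −1.74 after the low dose, and −2.02, −2.32 and −2.23 in RAR. All female RAR arrays lay below all female controls. RAR minus control was −0.58 in females (SE 0.14, limma adjusted p = 0.00499), which is under 1.5-fold and so not past the threshold; with normexp it was −0.62, with quantile normalization −0.76 and with Cy5 alone −0.99, all past it. It also passed without female control replicate 3 (−0.65) and without female RAR replicate 1 (−0.66). In males Ctsl was at −1.97, −2.03 and −2.14 in controls and at −1.51, −2.03 and −2.16 in RAR, and the difference was 0.14 (adjusted p = 0.528).

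Ccl25, the chemokine that draws CCR9-bearing precursors into the thymus, fell in RAR in both sexes. In females it was at 2.87, 2.64 and 2.34 in controls, 1.86, 2.66 and 2.03 after the low dose, 2.12, 1.96 and 2.11 after the high dose, and 0.99, 1.59 and 1.08 in RAR. All RAR arrays were below all others of that sex, and RAR minus control was −1.40 (SE 0.254, limma adjusted p = 0.000327). It was −1.58 without RAR replicate 2, −1.33 without RAR replicate 3 and −1.69 with slide as a block (adjusted p = 0.0042). High dose minus control was −0.55 (adjusted p = 0.184), which passed with Cy5 alone (−0.82, adjusted p = 0.0288), and low dose minus control was −0.43 (adjusted p = 0.336).

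Male Ccl25 was at 2.43, 2.54 and 1.64 in controls, 1.07, 1.77 and 1.55 after the low dose, 1.54, 1.86 and 1.51 after the high dose, and 1.5, 1.32 and 1.16 in RAR. The RAR arrays lay below the controls, but within the range of the low dose arrays. RAR minus control was −0.88 (SE 0.254, limma adjusted p = 0.0115), with slide as a block −1.06 (adjusted p = 0.0247), and it was lost without male control replicate 1 (−0.77, adjusted p = 0.0563) or 2 (−0.71, adjusted p = 0.065). Without male control replicate 3, the lowest control, high dose minus control (−0.57, adjusted p = 0.15 with all arrays) became −0.85 with adjusted p = 0.0297 and low dose minus control (−0.74, adjusted p = 0.07 with all arrays) became −1.02 with adjusted p = 0.0161. The low dose difference also passed with normexp (−0.69) and with the replicate block (adjusted p = 0.0444). A dimmer probe to another Ccl25 transcript, well above background on 12 of 24 arrays, gave 0.09 (adjusted p = 0.95) for female and 0.16 (adjusted p = 0.911) for male RAR minus control. That probe was well above background on 0 of 3 female controls and 1 of 3 female RAR arrays. In males it was so on 2 of 3 controls and 2 of 3 RAR arrays. The mean of both probes gave −0.65 (adjusted p = 0.16) in females and −0.36 (adjusted p = 0.471) in males.

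Cxcl12, a stromal chemokine that early thymocytes sense through CXCR4, gave a different answer at each of its probes. With the brighter probe, A_51_P172502, the level was −4.11, −4.64 and −4.50 in female controls and −4.70, −4.19 and −4.94 in female RAR, and −4.63, −4.48 and −4.94 in male controls and −3.35, −4.33 and −4.08 in male RAR. The male RAR arrays lay above the male controls, and their difference was 0.76 (SE 0.266, limma adjusted p = 0.0351), whereas that of females was −0.19 (adjusted p = 0.677). The male call was lost with quantile normalization (0.49), Cy5 alone (0.61), slide as a block (0.64, adjusted p = 0.224), and without male control replicate 1 (0.79, adjusted p = 0.0675) or 3 (0.63, adjusted p = 0.132) or male RAR replicate 1 (0.48, adjusted p = 0.21). With the other probe, A_55_P1966204, well above background on 23 of 24 arrays, female controls were at −3.29, −3.82 and −3.67 and female RAR arrays at −5.84, −5.18 and −6.83. There female RAR minus control was −2.36 (SE 0.45, limma adjusted p = 0.000495). It was −2.75 without RAR replicate 2, −1.92 without RAR replicate 3, whose spot was the one not well above background, −2.62 with slide as a block and −0.81 with normexp, all past the threshold. Female RAR minus low dose at that probe was −1.56 (adjusted p = 0.0433), lost without RAR replicate 3 (−1.12, adjusted p = 0.181) and with slide as a block (adjusted p = 0.141). Male RAR at that probe was at −3.86, −5.36 and −6.11 against −4.28, −4.41 and −4.81 in controls (−0.61, adjusted p = 0.349). Single-dose arrays at that probe lay below the controls of their sex. They spanned −4.67 to −3.85 (low) and −5 to −4.61 (high) in females, and −5.84 to −5.11 and −5.09 to −4.89 in males. Female high dose minus control passed with the replicate block (−1.26, limma adjusted p = 0.0361), normexp (−0.68) and Cy5 alone (−1.34). It did not pass with quantile normalization (−1.32, adjusted p = 0.14) or slide as a block (−1.46, adjusted p = 0.387). Nor did it pass, through the shared spread, without female RAR replicate 2 (adjusted p = 0.059) or 3 (adjusted p = 0.0501).

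**Figure D2:**
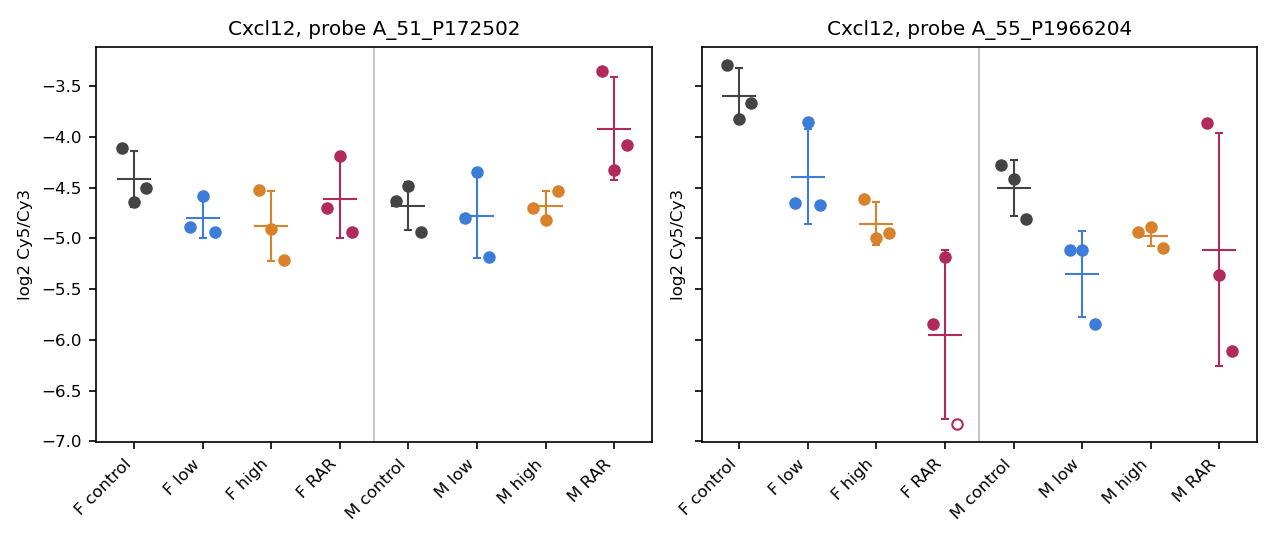
Level (log2 Cy5/Cy3, vertical axis) of Cxcl12 on each array at its brighter probe (left) and its other probe (right), by sex and treatment; filled points are well above background in Cy5, and bars give the mean and SD of 3 arrays. At the brighter probe female RAR arrays overlap their controls (−4.94 to −4.19 against −4.64 to −4.11), while at the other probe they lie below them (−6.83 to −5.18 against −3.82 to −3.29).

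Krt8, a keratin that cortical epithelium makes together with Krt18 and that other simple epithelia make too, was the one gene of the 10 that rose in RAR in both sexes. In females it was at −3.68, −3.81 and −3.98 in controls, −3.88, −3.62 and −3.66 after the low dose, −3.71, −3.39 and −3.75 after the high dose, and −2.76, −2.29 and −2.98 in RAR. In males it was at −3.74, −3.88 and −3.93 in controls, −3.85, −3.34 and −3.91 after the low dose, −3.27, −3.54 and −3.47 after the high dose, and −1.84, −2.55 and −2.64 in RAR. In each sex every RAR array lay above every other array. RAR minus control was 1.15 in females (SE 0.209, limma adjusted p = 0.000332) and 1.51 in males (adjusted p = 1.623e-05). The female value was 0.95 without RAR replicate 2, 1.30 without RAR replicate 3 and 0.96 with slide as a block (adjusted p = 0.047), and the male value with slide as a block was 1.38. The single doses gave 0.21 and 0.43 (high dose, female and male) and 0.11 and 0.15 (low dose), none past the threshold.

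Of 10 genes of macrophages and dendritic cells, 5 rose and 0 fell in female RAR against control (median 0.70), beside 9.64% and 10.8% of all probes. In male RAR 6 rose and 0 fell (median 1.51), beside 11.2% and 13.4%. Their mean level per array was 0.14 to 0.50 in female controls and 0.67 to 1.05 in female RAR, and −0.03 to 0.46 in male controls and 1.21 to 1.51 in male RAR. Cd68, a lysosomal protein of macrophages, rose by 1.72 and 2.19, Itgax, the integrin CD11c, by 1.84 and 1.94, and Mertk, a receptor for dying cells, by 2.30 and 2.22 (female and male). Between 7 and 9 of the 10 were well above background on each of these arrays, and Xcr1, a defining marker of cross-presenting dendritic cells, on none of the 24. The female count was also 5 of 10 without RAR replicate 2 or without RAR replicate 3, while the rise of Lyz2, a lysozyme gene (0.85), was lost with quantile normalization (0.66, limma adjusted p = 0.0549) and with slide as a block (0.67, adjusted p = 0.084). After the single doses 0 of these 10 genes fell. In females 1 rose after each dose, beside 4.23% (high) and 4.76% (low) of all probes. In males 4 rose after the high dose (median 0.47) and 2 after the low dose (median 0.25), beside 5.2% and 3.21%. RAR minus high dose had 5 higher and 1 lower in females (4% and 3.3%) and 5 and 0 in males (3.1% and 2.79%). The lower one was Clec9a (−1.65, but 0.02 with normexp). The part of these cells in the rise of Krt8 was not tested.

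Krt5, a keratin of medullary epithelium, fell after the high dose in females. With its brighter probe it was at 2.79, 2.37 and 3.03 in female controls, 2.22, 2.62 and 2.25 after the low dose, 1.42, 1.96 and 1.92 after the high dose, and 2.26, 2.51 and 2.42 in RAR. High dose arrays lay below all other female arrays, at −0.96 from control (SE 0.201, limma adjusted p = 0.00318), a call lost with slide as a block (−0.93, adjusted p = 0.18), with Cy5 alone (−0.59, adjusted p = 0.079) and, by size, with normexp (−0.57, adjusted p = 0.00468). RAR minus control was −0.33 in females (adjusted p = 0.257) and, with −0.75 (adjusted p = 0.0117), past the threshold with Cy5 alone; low dose minus control likewise went from −0.37 (adjusted p = 0.293) to −0.75 (adjusted p = 0.0282). In males Krt5 was at 2.26, 2.55 and 2.31 in controls and 3.03, 2.71 and 2.36 in RAR (0.33, adjusted p = 0.256). A second Krt5 probe was well above background on 1 of 24 arrays.

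Foxn1, Dll4 and Ly75 were too dim for a firm statement. Foxn1 was at 2.04, 1.44 and 0.73 in female controls and −0.56, 1.21 and −0.09 in female RAR, and at 1.45, 1.75 and 2.49 in male controls and −1.08, 2.13 and 0.75 in male RAR. All 3 male controls were well above background, and no male high or low dose array was. The male high dose arrays read 2.07, 0.92 and −0.50, overlapping the controls (−1.06, limma adjusted p = 0.465). The male low dose arrays read 0.73, 0.46 and −0.38, below all male controls (−1.62, adjusted p = 0.262). Neither difference passed the threshold, so no lower bound on a fall is given. Male RAR minus control was −1.30 (adjusted p = 0.281), and −2.93 with slide as a block (adjusted p = 0.0303).

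Dll4, the Notch ligand of cortical epithelium, lay between −1.43 and 1.41 on all arrays. Male RAR arrays were at 0.83, 0.79 and 0.91, above the male controls at −0.74, 0.47 and 0.06, a difference of 0.91 that did not pass (SE 0.564, limma adjusted p = 0.256). Female RAR minus control was 0.64 (adjusted p = 0.47), and 1.45 with Cy5 alone (adjusted p = 0.0297). Ly75, the endocytic receptor CD205, lay between −1.96 and 0.61, and its differences from control, between −0.39 and −1.09, did not pass (lowest adjusted p = 0.307). Dll4 was well above background on 3 arrays and Ly75 on 5, so a change under the size of that noise was not detectable here.

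RAR against the same high dose without priming compares mice with and without the priming dose. These mice also differ in total dose and in time since the first exposure, which cannot be told apart from priming here. The methods give no time from irradiation to collection. In females 2 of 10 were higher in RAR than after the high dose (Krt8 and Krt5) and 1 was lower (Ccl25), against 4% and 3.3% of all probes. In males 2 of 10 were higher (Krt8 and Krt5) and 0 lower, against 3.1% and 2.79%. The medians were −0.05 and 0.53, beside −0.03 and −0.02 over all probes. Among the probes well above background on all arrays of a group, 11.13% passed in females and 8.95% in males, in either direction.

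Krt8 was 0.94 higher in RAR than after the high dose in females (limma adjusted p = 0.00743) and 1.08 higher in males (adjusted p = 0.00296). The female call was lost with quantile normalization (0.64, adjusted p = 0.115), and on slide 1, which held arrays of both groups, the difference was 1.09. Within slides the male Krt8 difference was 0.68 on slide 1 and 1.67 on slide 2. Ccl25 was lower by −0.84 in females (SE 0.254, adjusted p = 0.0381). It passed without RAR replicate 2 (−1.03, adjusted p = 0.0289), but not without RAR replicate 1 (−0.73, adjusted p = 0.114), without RAR replicate 3 (−0.77, adjusted p = 0.11), without female high replicate 1, 2 or 3 (−0.81 to −0.90, adjusted p = 0.068 to 0.106) or with quantile normalization (−0.82, adjusted p = 0.0622). In males Ccl25 differed by −0.31 (95% interval −0.85 to 0.23, adjusted p = 0.518).

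Krt5 was 0.63 higher in RAR than after the high dose in females (limma adjusted p = 0.0495) and 0.68 higher in males (adjusted p = 0.0372). The female difference turned to −0.16 with Cy5 alone and was lost on leaving out any of the 6 arrays of those groups (0.46 to 0.73, adjusted p = 0.0561 to 0.201) or with slide as a block (adjusted p = 0.0952). The male difference was lost with quantile normalization (0.45), with slide as a block (adjusted p = 0.062), and without male high replicate 2 or 3 or male RAR replicate 1 or 2 (0.52 to 0.68, adjusted p = 0.0771 to 0.172). Prss16 was −0.95 in females (adjusted p = 0.085), past the threshold with the replicate block (adjusted p = 0.0405) and without male RAR replicate 1, which alters only the shared spread (adjusted p = 0.0425); in males it was −0.46 (adjusted p = 0.469). Cxcl12 at its brighter probe was 0.76 higher in male RAR than after the male high dose (adjusted p = 0.0792), and passed without male RAR replicate 2 (0.97, adjusted p = 0.0418).

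Against the priming dose alone, female RAR had 1 of 10 genes higher (Krt8) and 2 lower (Prss16 and Ccl25), against 2.28% and 1.86% of all probes, and male RAR had 3 higher (Krt8, Krt5 and Cxcl12) and 0 lower, against 4.98% and 4.8%. Among the probes well above background on all arrays of a group, 6.55% passed in females and 15.61% in males, in either direction. Krt8 was higher by 1.04 in females (limma adjusted p = 0.00614) and by 1.36 in males (adjusted p = 0.000206), the female call being lost with quantile normalization (0.73, adjusted p = 0.105). Female Prss16 was −1.34 (adjusted p = 0.0267), lost with slide as a block (−1.29, adjusted p = 0.096), without female low replicate 2 (−0.99, adjusted p = 0.134), and without RAR replicate 1 (−1.33, adjusted p = 0.0574) or 3 (−1.22, adjusted p = 0.0925). Female Ccl25 was −0.96 (adjusted p = 0.0294), lost with slide as a block (−1.03, adjusted p = 0.0737), with quantile normalization (−0.91, adjusted p = 0.062), with the mean of its probes (−0.55, adjusted p = 0.381), without RAR replicate 1 or 3 (−0.85 and −0.90) and without female low replicate 2 or 3 (−0.73 and −1.04). Male Krt5 was 0.64 (adjusted p = 0.035) and male Cxcl12 0.85 (adjusted p = 0.0343); both were lost with slide as a block, with quantile normalization (0.33 and 0.72), with the mean of the gene's probes (0.14 and 0.55), and without male RAR replicate 1, where they were 0.48 and 0.57. Krt5 was also lost without male RAR replicate 2 and without any one of the male low dose arrays (0.60 to 0.68), and Cxcl12 with Cy5 alone (0.70), without male RAR replicate 3 (0.93) and without male low replicate 1 or 3 (0.84 and 0.65). High dose minus low dose had 0 of 10 past the threshold in either sex with limma, against 0% and 0% of all probes in females and 0% and 0.0018% in males, and 1 of 10 (Krt5, females) and 0 of 10 at an unadjusted p under 0.05.

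**Figure D3:**
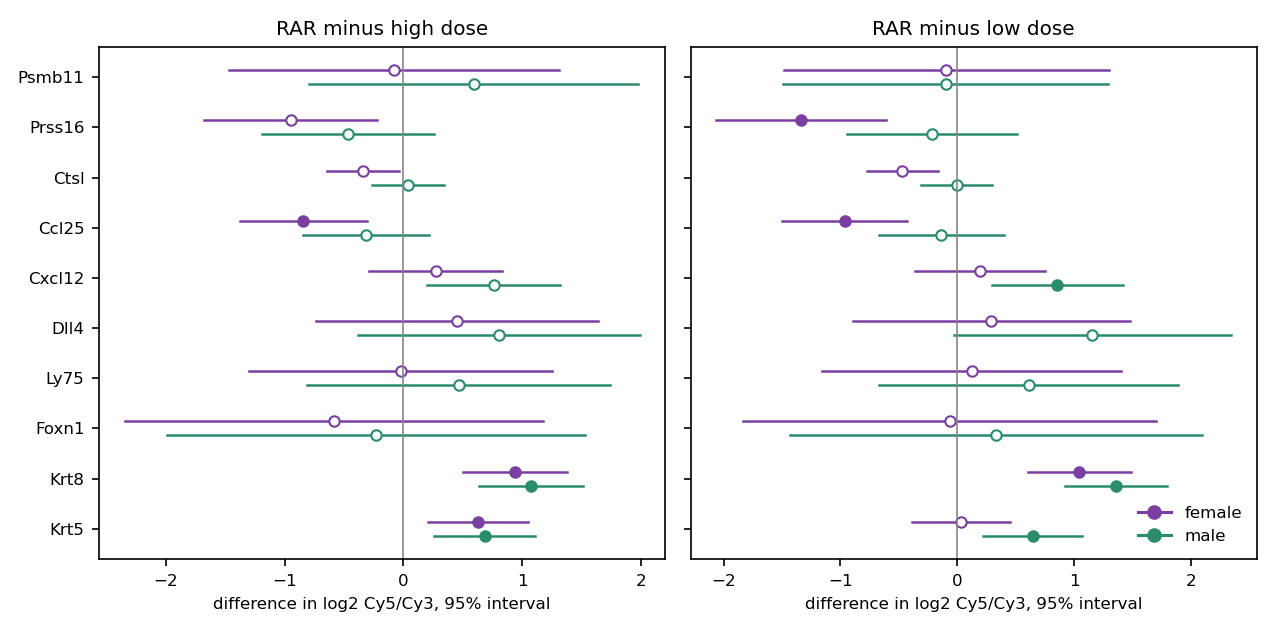
RAR minus high dose (left) and RAR minus low dose (right) for the 10 genes at their brightest probe: points are differences in log2 Cy5/Cy3 (horizontal axis) with 95% intervals, filled where past the threshold, females in purple and males in green. Krt8 is to the right of 0 in all 4 comparisons (0.94 to 1.36), and Prss16 and Ccl25 are to the left of it (−0.14 to −1.34).

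Males and females were compared within each treatment. None of the 10 genes passed the threshold with limma in any treatment, against 0.21% of all probes in controls, 0.228% after the low dose, 0.304% after the high dose and 0.438% in RAR, and 1, 1, 0 and 1 of 10 had an unadjusted p under 0.05. The term for sex by treatment passed for 0 of 10 genes against 0.00359% of probes, with adjusted p between 0.744 (Ctsl) and 0.9915 (Foxn1), and a two-way ANOVA without moderation also called 0. Ctsl was the one gene with an unadjusted p under 0.05 for this joint term. RAR minus control of Ctsl was 0.72 higher in males than in females (SE 0.204, limma adjusted p = 0.524). It was also higher in males for Prss16 (1.24, SE 0.488), Cxcl12 (0.95) and Krt5 (0.66). Their unadjusted limma p was 0.0205, 0.0209 and 0.0325, and their adjusted p lay between 0.607 and 0.631. High dose minus control of Krt5 was 0.61 higher in males (unadjusted p = 0.0474, adjusted p = 0.708). So the larger fall of Prss16 in female RAR (−2.35) than in male RAR (−1.11) was not shown to be a difference between the sexes (adjusted p = 0.607 for RAR and 0.776 for the joint term).

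Of 15 further thymic epithelial genes, mainly cortical or common to cortex and medulla, some fell and others rose after every treatment. In females 2 rose and 2 fell after the high dose (beside 4.23% and 3.65% of all probes), 2 rose and 3 fell after the low dose (4.76% and 4%), and 3 rose and 4 fell in RAR (9.64% and 10.8%). In males the counts were 2 and 2 (5.2% and 5.38%), 2 and 1 (3.21% and 3.44%), and 3 and 3 (11.2% and 13.4%). Their medians were −0.30, −0.30 and −0.34 in females and −0.06, −0.10 and 0.35 in males, in the same order.

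Pax1, a transcription factor of the pharyngeal pouch from which the thymus arises, fell in all 6 comparisons, from a mean of 4.49 in female controls to 1.04 in female RAR (−3.45, SE 0.368, limma adjusted p = 1.385e-06), and by −2.11 in male RAR. In females Pax1 was also lower in RAR than after the high dose (−1.93, adjusted p = 0.00304; with normexp −0.42, under 1.5-fold). Slc46a2, a solute carrier made by thymic stroma, fell in both RAR groups (−2.38 and −1.62) and after both high doses (−1.42 and −1.82; with slide as a block the female value was −2.18, adjusted p = 0.112). Krt18, the partner of Krt8, rose in all 6 comparisons, by 0.90 to 1.47 in females and 0.90 to 2.46 in males. Eya1, a cofactor needed for thymus formation, likewise rose by 0.70 to 1.54 and by 0.77 to 1.74. Several of these calls depended on the setting. With slide as a block Pax1 was −1.83 after the high dose (adjusted p = 0.0922) and −1.22 after the low dose (adjusted p = 0.0699), and Krt18 0.85 (adjusted p = 0.318). With Cy5 alone Krt18 was 0.59 and 0.64 after the female high and low dose and Eya1 0.40 and 0.39, none past the threshold, and after the male low dose Krt18 was 0.75 (adjusted p = 0.0624) and Eya1 0.42 (adjusted p = 0.0658). Female RAR minus control of Eya1 was 0.56 with Cy5 alone, under 1.5-fold. With quantile normalization the Krt18 calls after the female high dose (adjusted p = 0.0534), the female low dose (adjusted p = 0.0714) and the male low dose (adjusted p = 0.0933) were lost, and with slide as a block that after the female low dose (0.67, adjusted p = 0.17) and that of Eya1 after the female high dose (0.67, adjusted p = 0.229).

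In female RAR Tbata, a thymic stromal gene also called Spatial, fell as well (−1.88), and Cdh1, the adhesion molecule E-cadherin, also passed as lower, but was 0.17 higher with Cy5 alone and so has no settled direction. Trp63, the epithelial stem cell factor p63, rose in both RAR groups (0.88 and 0.78). Enpep, the surface aminopeptidase of cortical epithelium known as Ly51, was −1.95 after the female low dose and −2.04 in male RAR, but was well above background on 3 of 24 arrays. Ackr4, the scavenging chemokine receptor used to mark cortical epithelium, was on none.

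**Figure D4:**
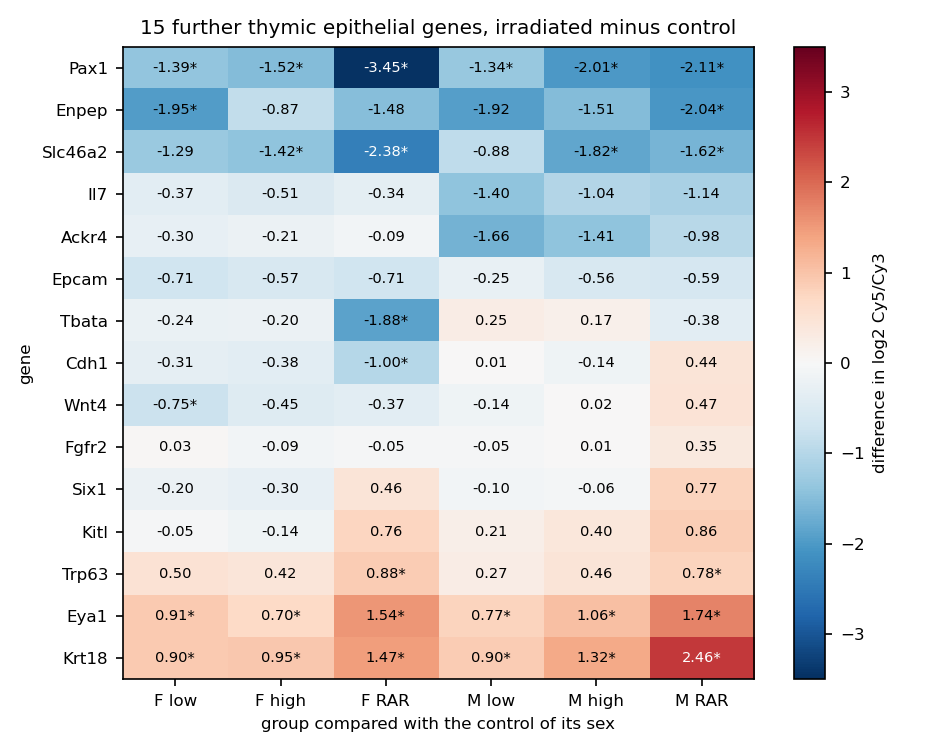
Difference in log2 Cy5/Cy3 of 15 further thymic epithelial genes (vertical axis) between each irradiated group and the control of its sex (horizontal axis), blue lower and red higher; a star marks differences past the threshold. Pax1 is lower and Krt18 and Eya1 are higher in all 6 columns, and Ackr4, which was well above background on no array, carries no information.

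Other stromal cells were read through lists of their own. Of 10 medullary epithelial genes, 0 rose or fell in females after either single dose and 1 rose in males after each, Plet1, a surface protein of epithelial progenitors (0.81 and 0.92; lost with quantile normalization, limma adjusted p = 0.0969 and 0.0558, and with the replicate block, adjusted p = 0.0698 and 0.0557; the high dose call also without female RAR replicate 2, through the shared spread, adjusted p = 0.0549). These single-dose counts stand beside 4.23% and 3.65% (high dose) and 4.76% and 4% (low dose) of all probes in females, and 5.2% and 5.38%, and 3.21% and 3.44%, in males. In RAR 1 rose and 1 fell in females (9.64% and 10.8% of all probes) and 5 rose and 1 fell in males (11.2% and 13.4%). Tnfrsf11a, the receptor RANK through which thymocytes mature the medulla, rose in both RAR groups (0.94 and 1.49). Krt17 (0.93), Plet1 (1.17) and Krt14 (0.80) rose in male RAR, Krt17 not with quantile normalization (0.61, adjusted p = 0.126) and Krt14 not with slide as a block (0.50, adjusted p = 0.0954), and Cldn3, a tight junction protein, was −2.06 there and well above background on 6 of 24 arrays. Cldn4, the related claudin, was −1.90 in female RAR, but 0.02 with Cy5 alone, and lost without RAR replicate 2 or 3.

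Of 11 mesenchymal genes, 4 rose and 1 fell in female RAR (beside 9.64% and 10.8% of all probes) and 4 rose and 0 fell in male RAR (11.2% and 13.4%). Col1a2, a collagen chain, rose by 1.08 (0.52, under 1.5-fold, with Cy5 alone) and 1.1, Bmp4, a growth factor of thymic mesenchyme, by 1.01 and 1.22, and Lum, the matrix protein lumican, fell in female RAR by −2.65. Fgf10, a growth factor for epithelium, read 1.09 and 1.18 and was well above background on 1 of 24 arrays, and Dpt on none. Of 8 endothelial genes, 0 rose and 2 fell in female RAR and 1 rose and 1 fell in male RAR, beside the same shares of all probes. The endothelial adhesion molecule Pecam1 was −0.64 in female RAR (−0.14 with slide as a block) and −0.65 in male RAR (−0.27), and Tie1, the other female fall, was well above background on no array. Without female RAR replicate 2 the count of endothelial falls was 0.

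On the thymocyte side, receptors and targets for the signals these epithelial genes send were read as well. Of 9 such genes, 1 rose and 3 fell in female RAR (beside 9.64% and 10.8% of all probes) and 1 rose and 1 fell in male RAR (11.2% and 13.4%). Notch1, the receptor of Dll4, rose in all 6 comparisons, by 0.74 to 1.61 in females and by 1.08 to 1.85 in males. With slide as a block its female single-dose rises were lost (0.54, adjusted p = 0.507; 0.69, adjusted p = 0.0849). Ccr9, the receptor of Ccl25, differed by 0.23 to 0.55 from control and never by 1.5-fold. Cxcr4, the receptor of Cxcl12, was −0.60 in female RAR (−0.46, under 1.5-fold, without RAR replicate 2) and −0.44 in male RAR, also under 1.5-fold. Nrarp, a Notch target, read −2.02 and −2.18 in RAR and was well above background on 5 of 24 arrays. Dtx1, another, was lower after the high dose (−0.66 and −0.80) and higher in RAR than after the high dose (0.78 and 0.96). With slide as a block Dtx1 after the high dose was −0.14 in females (limma adjusted p = 0.901) and −0.52 in males (adjusted p = 0.156). With quantile normalization the female high dose call of Dtx1 was lost (−0.61, adjusted p = 0.166), as were both RAR minus high dose calls (adjusted p = 0.0589 and 0.152), and the female RAR minus high dose call was lost without RAR replicate 3 (0.56, adjusted p = 0.0845).

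Of the 10 double-positive thymocyte genes, 2 rose and 2 fell in female RAR, beside 9.64% and 10.8% of all probes, and 4 rose and 1 fell in male RAR, beside 11.2% and 13.4%. Rag1, which starts receptor gene recombination, was 0.64 and 0.95 higher in RAR, and Cd8b1, a chain of CD8, 0.62 and 0.74 higher. With Cy5 alone the same genes were lower (Rag1 −0.39 and −0.69, Cd8b1 −0.66 and −0.99), so neither has a settled direction. The female falls were Rag2 (−1.72) and Themis (−0.61), both under 1.5-fold with normexp (−0.47 and −0.52). Psmb11 belongs to a proteasome family of which 6 other catalytic subunits were read, all well above background on all 24 arrays. In RAR 1 of these rose and 1 fell in each sex, beside 9.64% and 10.8% of all probes in females and 11.2% and 13.4% in males, and none passed after a single dose. Psmb10, an immunoproteasome subunit, rose by 1.00 and 0.94, and Psmb7, its constitutive counterpart, was −0.65 and −0.69. With Cy5 alone female Psmb10 was 0.58, just under 1.5-fold, and with normexp Psmb7 was −0.45 and −0.52, also under it, as male Psmb7 was with quantile normalization (−0.47). Psmb10 was also higher in RAR than after the high dose (0.90 and 0.89).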

How the data were processed

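RNA of 24 thymocyte samples was hybridised in Cy5 against a reference pool in Cy3. The authors deposited, for each array, the intensity of 62976 spots in both channels and flags, from Feature Extraction 11.5.1.1 per the file headers, which had subtracted background and normalized the dyes; the paper names another version. They also deposited a table of log2 ratios, and at least 99.77% of its values per array lay no more than 0.01 from the ratios taken here from the processed signals. Arrays limit precision by their number, 3 per group.

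Outlier spots (183 to 368 per array) were left out and 0 spots were saturated. All 55681 non-control probes were fitted in R 4.3.3 with limma 3.58.1 as 8 group means (16 residual and 1.63 prior degrees of freedom), with Benjamini-Hochberg adjustment over all probes. Tables were read with the data.table package (1.17.8) and pandas 2.3.3 under Python 3.11.15, and plots drawn with matplotlib 3.10.9. The fit was tested on simulated data. Probes (28026) were named through their accession with a list from RefSeq, GRCm38.p6, used for names only; the array annotation is of another build. A gene was read at its probe with the highest mean Cy5 signal.

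The genes and lists were chosen with earlier results of these data known. All 10 genes are named, and from each list at most 3 rises and 3 falls per comparison, with any defining marker never above background. "At least" folds compare the brighter group's mean with the lowest signal well above background on each dimmer array, per channel after Aquantile normalization, and with no dye swap they are open to dye bias. Alternatives were normexp with loess, quantile normalization, Cy5 alone, the deposited table, a filter on dim probes, slide or replicate number as a block, leaving out each group's farthest value, another size threshold, the mean of a gene's probes, and each array left out; for the lists these were chosen after seeing the data. The 3 samples per group are called independent in the methods. 0 columns of values were left unmatched.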

Additional observations from a re-analysis of the deposited data

Results flagged for a closer look

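The mean difference of Ctsl from control after the high dose had opposite signs in the sexes. High dose minus control was 0.34 higher in males than in females (SE 0.20, limma adjusted p = 0.764 for the term). Within each sex it passed the threshold in 0 of 33 alternative settings. In males it ran from −0.13 to 0.21 over these settings, so its direction was not settled. The mean was −1.61 in female and −2.04 in male controls, and −1.85 and −1.94 after the high dose. The levels of the sexes thus lay closer after the high dose than in controls. All 3 female high dose arrays were below the female control mean, and all 3 male high dose arrays were above the male control mean. The arrays still overlapped in both sexes. High dose arrays spanned −2.01 to −1.68 in females, against −1.77 to −1.49 in controls. In males they spanned −2 to −1.86, against −2.14 to −1.97. The test of the difference did not pass the threshold, and the values are given with no explanation.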

How the results depend on the processing

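Over both sexes, 2 of 18 pairs of gene and sex passed the threshold for high dose against control, 0 of 18 for low dose and 7 of 18 for RAR, and 5 and 6 of 20 for RAR against the high and the low dose; high against low dose, male against female and the sex by treatment term gave 0. With normexp the high dose count was 1 and the low dose count 3. With quantile normalization RAR against high dose gave 1 and against low dose 3. With Cy5 alone the low dose count was 2 and RAR against high dose 3, and Krt5 in female RAR minus high dose reversed to −0.16. Leaving out dim probes gave 2 for the low dose. With slide as a block the counts were 0 for high dose, 1 for low dose, 3 for RAR against high dose and 2 against low dose. With the mean of a gene's probes they were 1 for high dose, 5 for RAR against control (Ccl25 lost in both sexes and Cxcl12 in males, Cxcl12 gained in females), 2 for RAR against high dose and 3 against low dose. When each group lost its farthest value they were 6 for high dose, 7 for low dose, 8 for RAR against high dose, 7 for male against female and 7 for the sex by treatment term; that step narrows the spread by construction. With a log2 change over 1.5 in place of 1.5-fold they were 0 for high dose, 2 for RAR against control, and 0 for RAR against either dose. Otherwise the cause was not tested. Leaving out 1 array gave 2 to 3 for high dose, 0 to 2 for low dose, 4 to 8 for RAR, 3 to 5 for RAR against high dose, 4 to 6 against low dose, and 0 to 0 for the other comparisons. With the replicate block the low dose count was 2, the high dose count 2, RAR against control 7, against high dose 4 and against low dose 6. The replicate numbers were not taken to pair the samples: deviations of same-numbered arrays correlated at −0.164 to 0.222 (median −0.0036), over 0.1 in 4 of 84 pairs, against 11 of 168 pairs with different numbers. The deposited table kept every count here. Psmb11, Foxn1, Dll4 and Ly75 are limited by signal near background, and Cxcl12 by probes that disagree. Ccl25 and Krt5 are limited by a second probe that was not well above background on many arrays.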
